A study of Homo sapiens with 4 samples.

Results

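High-mitochondrial barcodes are the cell barcodes of the 4 libraries that expressed at least 2000 genes and drew 5% to under 10% of their unique molecular identifiers (UMIs, counted molecules) from the 13 genes with the prefix MT-. They were chosen by that MT share, are the barcodes that the customary 5% limit drops, and were set against the barcodes of the same library under 5%, called kept barcodes here. The rule took 1844 of the 5194 barcodes with at least 2000 genes and left 3212 as kept barcodes and 138 at 10% or more. The deposited matrices held 9205 barcodes in all.

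The cells were HCEC 1CT, an established line of human colonic epithelial cells immortalised with TERT and CDK4, carrying a scrambled shRNA (shScr) or an shRNA against APC (shAPC), grown under puromycin and harvested at day 3 or day 7 after transduction. Each of the 4 groups held 1 library, and nothing in the labels says whether the cultures were clones or were grown apart. The libraries served as 4 blocks for the contrast inside them, so p-values cover the spread of that contrast between 4 libraries of different condition, which may be technical. The high-mitochondrial barcodes held 3903903 to 22479999 UMIs outside the MT- genes per library and the kept ones 26207550 to 37550580. Pairs of libraries shared 2 to 25 barcode sequences, of which at most 5 had 2000 genes in both. Runs of 4 values are given for shScr and shAPC at day 3, followed by shScr and shAPC at day 7.

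The MT- genes lie on the mitochondrial genome, which encodes subunits of the respiratory chain and the RNAs of the mitochondrial ribosome. All other parts of the respiratory chain, and every protein of the mitochondrial ribosome, come from nuclear genes. A high share of mitochondrial transcripts is widely used to mark damaged cells that have lost cytoplasmic RNA, and it also differs between cell types and states with their content of mitochondria.

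High-mitochondrial barcodes were 106 of 880 barcodes in shScr day 3, 118 of 708 in shAPC day 3, 472 of 1462 in shScr day 7 and 1148 of 2144 in shAPC day 7. Their share was 12.05% (exact binomial 95% interval 9.97% to 14.4%), 16.7% (14.0% to 19.6%), 32.3% (29.9% to 34.7%) and 53.5% (51.4% to 55.7%). The share was higher in both day 7 libraries than in both day 3 libraries, and in shAPC day 7 the high-mitochondrial barcodes were the majority. These intervals cover counting error only, and the differences between libraries, days and shRNAs were not tested. The limit falls on a continuous distribution, since 117, 150, 314 and 567 barcodes lay between 4.5% and 5.5%. In shScr day 3 the kept barcode nearest the limit stood at 4.998% and the nearest high-mitochondrial barcode at 5.01%.

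**Figure D1:**
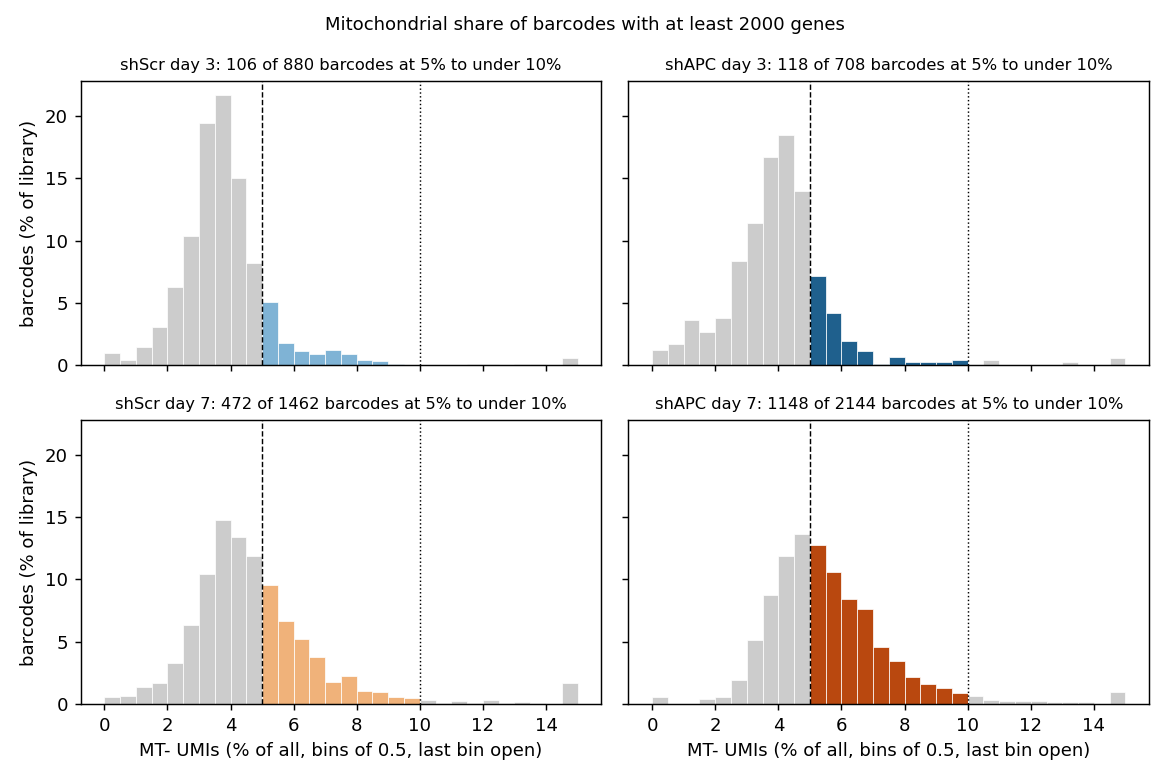
Percentage of the barcodes of each library (y axis) by the percentage of their UMIs from MT- genes (x axis, bins of 0.5, the last bin holding all higher shares), for barcodes with at least 2000 genes. Coloured bars are the high-mitochondrial barcodes between the dashed line at 5% and the dotted line at 10%, 106, 118, 472 and 1148 barcodes, and no gap separates them from the kept barcodes in grey.

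The MT- share and its parts chose the barcodes, so the following values are a description. The median MT share was 5.74%, 5.69%, 5.99% and 6.21% in the high-mitochondrial barcodes and 3.53%, 3.72%, 3.77% and 4.17% in the kept ones. The median number of MT- UMIs was 1.17, 1.25, 1.28 and 1.10 times that of kept barcodes, at 2140, 2567.5, 1388.5 and 1266.5 UMIs. The median number of other UMIs was 0.675, 0.792, 0.762 and 0.692 times that of kept barcodes, at 33683 against 49873, 43534.5 against 54972, 21111 against 27694 and 18644 against 26949.5. In all 4 libraries the high share went with fewer nuclear-encoded transcripts as well as more mitochondrial ones, and the former difference was the larger on the log2 scale.

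Fewer molecules gave fewer genes, with medians of 5418.5, 6198.5, 3940 and 3803 genes against 5910, 6538, 4439 and 4349. When every barcode was thinned to 4000 UMIs outside the MT- genes, the order turned: the medians were 1424.5, 1515, 1332.5 and 1361 genes against 1336, 1465, 1326 and 1286. The thinned ratio was 1.07, 1.03, 1.00 and 1.06, above 1 in 4 of 4 libraries (exact sign-flip permutation test over libraries, two-sided p = 0.13, the smallest that 4 libraries allow). No barcode was too shallow to be thinned. At matched depth the median high-mitochondrial barcode thus had at least as many genes as the median kept barcode in each library.

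The makeup of the mitochondrial RNA itself differed little between the classes for the abundant genes. MT-CO2, a subunit of cytochrome c oxidase, held on average 26.1% of the MT- UMIs, MT-CO1 23.0% and MT-ND4 12.2%. The log2 ratio of its share of MT- UMIs between the classes was 0.00 ± 0.01 for MT-CO1 and -0.05 ± 0.05 for MT-CO2 (mean ± SD, n = 4 libraries). MT-ND6, the subunit gene encoded on the light strand, stood apart at day 7, with log2 ratios of 0.06, -0.06, -0.47 and -0.61. It held 0.196% of the MT- UMIs, or 529, 531, 1261 and 2152 UMIs in the high-mitochondrial barcodes. MT-ATP8, which held 0.0325%, had log2 ratios of -0.20, 0.02, -0.08 and -0.36. The means of the other 9 genes lay between -0.03 and 0.08.

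Of 12 epithelial markers some were detected and others were at or near 0. KRT20 and CDX2 had no UMI in either class of any library, EPCAM had 2 UMIs in all high-mitochondrial barcodes together and CDH1 and CLDN3 had none. CLDN7, a tight junction protein, had 58, 54, 76 and 123 UMIs in high-mitochondrial barcodes and 331, 581, 216 and 174 in kept ones. The keratins KRT18 and KRT19 had 16, 23, 45 and 54 UMIs and 2, 70, 9 and 63 UMIs in high-mitochondrial barcodes, CLDN4, VIL1 and LGALS4 had at most 4 there in any library, and only KRT8 reached the mean of 10 CPM (UMIs of a gene scaled to the same total outside the MT- genes in every sum) required for a test. Of 12 mesenchymal markers 11 reached it, and VIM, encoding vimentin, stood at 3654 to 5428 CPM in high-mitochondrial barcodes. The label of colonic epithelial cells is used as the name of the line only. Of 10 immune markers CD3D, CD3E, MS4A1 and NKG7 had no UMI in either class and PTPRC had 1, in kept barcodes, while CD68 stood at 16.2 to 28.3 CPM in high-mitochondrial barcodes. No erythroid or endothelial marker reached the mean for a test.

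APC separated the labels in both classes. In high-mitochondrial barcodes APC stood at 19.7 CPM in shScr day 3 and 10.2 in shAPC day 3, and at 24.1 CPM in shScr day 7 and 5.605 in shAPC day 7. The shAPC level was 51.9% of shScr at day 3 and 23.2% at day 7, and in kept barcodes it was 34.3% and 33.97%. Between classes APC had log2 ratios of 0.22, 0.74, 0.23 and -0.27, a mean of 0.23 ± 0.41 (SD, n = 4), which did not pass the test (edgeR quasi-likelihood, Benjamini-Hochberg adjusted p = 0.340). CTNNB1, encoding beta-catenin, the protein that APC directs to degradation, rose from 86.3 to 109.6 CPM, 89.9 to 120.6, 84.8 to 119.6 and 66.7 to 82.1 (log2 ratio 0.39 ± 0.09, adjusted p = 0.0128), and was higher in 4 of 4 libraries. The sums of TERT, which the line carries, were 14, 19, 9 and 45 UMIs in high-mitochondrial barcodes, too few for a test, and CDK4 stood at 73.0, 82.9, 59.3 and 76.2 CPM against 68.1, 101.4, 75.9 and 78.3 (log2 ratio -0.14 ± 0.21, adjusted p = 0.247).

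To ask which nuclear genes went with a high mitochondrial share, UMIs were summed per library and class, MT- genes were left out of the totals, and the 8 sums were fitted with the library as a block. Of 7305 genes with a mean of at least 10 CPM, 21.6% passed an adjusted p of 0.05. High-mitochondrial barcodes had 1231 genes higher, 16.9% of those tested, and 350 genes lower, 4.79%. The differences were small, with a median log2 ratio of 0.35 among the genes called higher and -0.36 among those called lower. The median log2 ratio of all genes was itself above 0, at 0.18, 0.06, 0.02 and 0.10 in the 4 libraries. With TMM scaling, at which the median over genes of the mean ratio was 0.00 rather than 0.09, 633 genes were higher and 809 lower. The share of calls that were higher was 77.9% with plain totals and 43.9% with TMM.

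The calls rested on the shAPC day 7 library, which holds the most high-mitochondrial barcodes. Without it 3 genes were higher (TMEM158, MTRNR2L8 and SAA2) and 0 lower by edgeR, against 1401 and 496 at an unadjusted p under 0.05. Without shScr day 3 there were 372 higher and 226 lower, without shScr day 7 426 and 57, and without shAPC day 3 1100 and 312. Without shAPC day 7 no gene of any list below was called, so the counts need that library, and medians without it are given for the leading lists. The log2 ratios of single libraries do not depend on it.

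The ratios of the 4 libraries shared a direction more often than a large size. The log2 ratio was above 0 in all 4 libraries for 2417 genes (33.1%) and below 0 in all 4 for 803 (11.0%). At 1.5-fold or more in all 4 libraries there were 2 genes higher (0.0274%), SLC6A8 and MTRNR2L8, and 0 (0.0%) lower. Across genes, the ratios of 2 libraries had a Pearson correlation of 0.37 to 0.43 for 5 of the 6 pairs of libraries and of 0.70 for shScr day 7 with shAPC day 7. These day 7 libraries also hold the most high-mitochondrial barcodes, so the high-mitochondrial sums carry less counting error there than at day 3. Genes are not independent replicates, and the correlations are given as a description.

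MTRNR2L8 rose in every library, from 57.5 to 104.8 CPM, 57.9 to 116.1, 27.6 to 52.6 and 47.8 to 100.5. Its log2 ratios were 0.86, 0.99, 0.91 and 1.06 (adjusted p = 0.00136). MTRNR2L12 rose from 23.2 to 46.1, 13.1 to 22.3, 10.7 to 19.5 and 10.5 to 15.04 CPM (log2 ratios 0.96, 0.73, 0.81 and 0.49, adjusted p = 0.00680). Both are nuclear copies of the gene for the large ribosomal RNA of the mitochondrion, which was not among the 13 MT- genes of the matrices and so could not be removed with them. Reads of such near-identical copies can be shared between the nuclear and the mitochondrial gene in the counting, so the UMIs of both nuclear genes are uncertain and are not counted among the nuclear genes below.

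Apart from these, the 12 genes that rose most by the smallest of their 4 ratios were led by SLC6A8, the creatine transporter (chrX:153687926-153696588, GRCh38). SLC6A8 rose from 7.56 to 17.4 CPM in shScr day 3, 11.2 to 17.6 in shAPC day 3, 7.90 to 17.0 in shScr day 7 and 13.5 to 23.7 in shAPC day 7 (log2 ratio 0.87 ± 0.23, adjusted p = 0.00680). The high-mitochondrial barcodes of all 4 libraries lay above the kept barcodes of all 4. FAM20C, a kinase of secreted proteins (chr7:192571-260772), rose from 15.53 to 26.1, 10.1 to 17.2, 12.3 to 19.0 and 10.5 to 21.2 CPM (log2 ratio 0.74 ± 0.15, adjusted p = 0.00680), again without overlap between the classes. TP53INP1, a target of p53, rose from 11.1 to 25.6, 23.2 to 34.6, 12.1 to 21.3 and 32.3 to 66.5 CPM (log2 ratio 0.87 ± 0.26, adjusted p = 0.00680), and here the levels of the libraries overlapped while the ratio was above 0 in each. The levels of these genes are sums over barcodes, so a shift in every cell and a shift in some cells cannot be told apart.

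Several of the 12 genes encode proteins of the cell surface or the matrix, though the share of such genes among all genes tested was not counted. CD46, a complement regulator on the cell membrane (chr1:207752037-207795513), rose from 42.7 to 66.1, 36.5 to 53.2, 44.3 to 65.2 and 38.3 to 58.3 CPM, with the smallest SD of the 12 genes (log2 ratio 0.57 ± 0.04, adjusted p = 0.00680). GJA1, which encodes the gap junction protein connexin 43, rose by a log2 ratio of 0.56 ± 0.05 and COL7A1, the collagen of anchoring fibrils, by 0.62 ± 0.10. ABCC4, an efflux transporter, rose by 0.69 ± 0.21, and ADAM12, a membrane metalloprotease, by 0.73 ± 0.16. The other members were METTL7A, TTYH3, FAM198B and TMEM245, with mean log2 ratios of 0.76, 0.70, 0.70 and 0.57.

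Among the 12 genes that fell most evenly were genes for mitochondrial proteins. GLRX2, a mitochondrial glutaredoxin (chr1:193090866-193106114), fell from 37.7 to 25.6 CPM, 51.2 to 32.4, 49.0 to 30.3 and 35.7 to 23.6 (log2 ratio -0.61 ± 0.06, adjusted p = 0.00680), and all high-mitochondrial values lay below all kept ones. NDUFA12, a subunit of respiratory complex I, fell from 65.8 to 49.2, 101.0 to 62.7, 89.8 to 55.7 and 68.6 to 51.6 CPM (log2 ratio -0.54 ± 0.16, adjusted p = 0.00975), again without overlap between the classes. S100A10, the partner of annexin A2, was the most abundant of the set, with 865 against 1130.0 CPM, 798 against 1136, 654 against 969.9 and 437 against 617.8 (log2 ratio -0.49 ± 0.08, adjusted p = 0.00680).

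Others of the 12 were uneven in size. ANKRD1, a muscle ankyrin repeat protein known as a target of YAP, fell from 121 to 54.6 CPM, 86.6 to 28.3, 138 to 100.8 and 43.5 to 11.3 (log2 ratio -1.25 ± 0.61, adjusted p = 0.0100). G0S2, an inhibitor of triglyceride lipase, fell from 96.9 to 28.2, 60.1 to 12.1, 89.6 to 67.9 and 26.1 to 12.6 CPM (log2 ratio -1.34 ± 0.81, adjusted p = 0.0144). SNHG12, a snoRNA host gene, fell most in shAPC day 3, from 121 to 22.7 CPM, with log2 ratios of -0.45, -2.36, -0.61 and -0.73. SLC7A2, a transporter of cationic amino acids, had log2 ratios of -0.38, -0.82, -0.76 and -1.04. LETM2, CWC15, CCDC174, PRSS3 and CCDC112 had means of -0.62, -0.48, -0.75, -0.52 and -0.52.

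**Figure D2:**
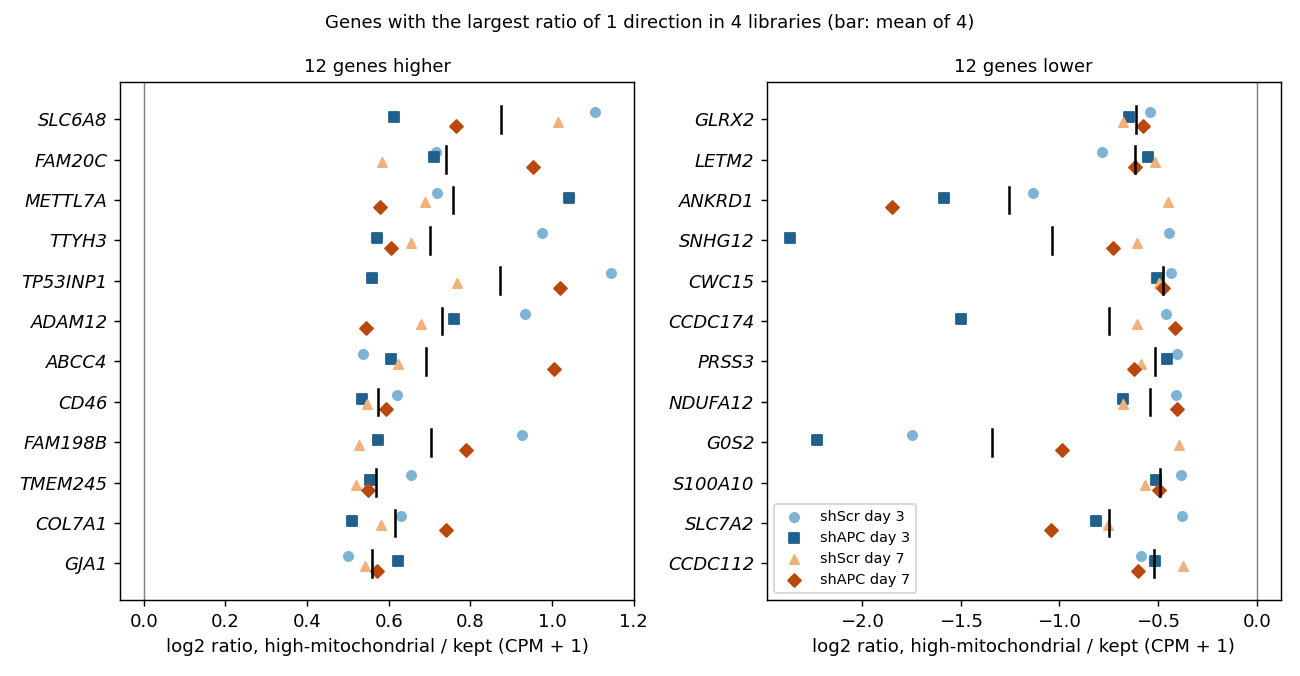
Log2 ratio of high-mitochondrial to kept barcodes (x axis, CPM plus 1) for the 12 genes that rose and the 12 that fell most evenly (y axis), with 1 point per library. By the choice of genes all points of a gene lie on 1 side of 0, and CD46 and CWC15 are tight across libraries, while SNHG12 and G0S2 are spread.

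Genes of the extracellular matrix formed the group with the largest positive median. Of 22 tested genes of the matrix list 16 rose and 1 fell, beside 16.9% and 4.79% of all genes. The median log2 ratio was 0.46, 0.39, 0.41 and 0.34 in the 4 libraries. These shares of all genes, and their median mean ratio of 0.09, are the background for the main counts of every list below. Other settings have their own background of genes higher and lower. It was 633 and 809 of 7277 with TMM, and 180 and 56 of 7355 after thinning to 4000 UMIs. Weighting kept barcodes by UMIs gave 617 and 340 of 7344, and kept barcodes of 3% to under 5% gave 1467 and 169 of 7271. Without the 5% deepest barcodes it was 1216 and 229 of 7307. Leaving out shScr day 3 gave 372 and 226 of 7371, and leaving out shScr day 7 gave 426 and 57 of 7414. Without shAPC day 3 it was 1100 and 312 of 7080. Without shAPC day 7 the median of the matrix list's mean ratios was 0.46, against 0.39 with it. COL1A1, a chain of the main fibrillar collagen, rose from 1513 to 2108 CPM, 1592 to 1983, 947.0 to 1222 and 1554 to 1867 (log2 ratio 0.36 ± 0.09, adjusted p = 0.00984). COL6A2 and COL6A1, chains of microfibrillar collagen, had log2 ratios of 0.56 ± 0.06 and 0.55 ± 0.08, and LAMC1, a laminin chain of the basement membrane, 0.52 ± 0.10. Here and below, list members other than the 3 most abundant of a list were named after their values were seen. FN1, encoding fibronectin, rose less, by 0.20 ± 0.15 (adjusted p = 0.0391). The member that fell was TIMP1, an inhibitor of the metalloproteases that degrade matrix, with log2 ratios of 0.10, -0.59, -0.24 and -0.58. Of all 17 tested genes with symbols in COL, a family tallied after the values were seen, 14 rose and 1 fell.

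The mesenchymal markers, of which COL1A1, COL1A2, COL3A1, FN1 and SPARC are also in the matrix list, had 7 of 11 genes higher and 0 lower, with a median log2 ratio of 0.26. VIM was among those not called, at -0.06 ± 0.08. Genes of glycolysis and the hypoxia response had 9 of 22 higher and 0 lower (16 and 1 at an unadjusted p under 0.05), with a median of 0.25. They included the glucose transporters SLC2A1 (0.46 ± 0.07) and SLC2A3 (0.43 ± 0.33), HK2, which phosphorylates glucose (0.37 ± 0.39), and VEGFA (0.40 ± 0.08), while GAPDH stood at -0.14 ± 0.12 without passing the test. With TMM the glycolysis count was 3 higher and 1 lower, and with kept barcodes weighted to the UMI distribution of the high-mitochondrial ones it was 3 and 0. Without shScr day 3 it was 5 and 0, without shScr day 7 3 and 0, and after thinning 0 and 0. The matrix count was 12 higher with TMM and 11 with weighting, and the mesenchymal count 4 and 3.

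The nuclear lists of the respiratory chain and of the mitochondrial ribosome had medians below 0, although most of their genes were not called. Of 77 tested nuclear genes of the respiratory chain 30 fell and 1 rose, with median log2 ratios of -0.08, -0.19, -0.31 and -0.15. Of 71 tested genes of the mitochondrial ribosome 28 fell and 0 rose (39 and 0 at an unadjusted p under 0.05), with medians of -0.09, -0.25, -0.39 and -0.20. All 8 medians were below 0 and below the median of all genes in the same library. Without shAPC day 7 the medians of the mean ratios were -0.19 and -0.24, against -0.17 and -0.23 with it. The counts moved widely with the setting. With TMM 46 respiratory chain and 47 mitochondrial ribosome genes were lower, and without the 5% deepest barcodes 17 and 15. Without shScr day 3 the counts were 19 and 15, and without shScr day 7 4 and 3. After thinning to 4000 UMIs, which removes most UMIs, they were 2 and 5, with medians of -0.09 and -0.19. Members that fell were NDUFA12, above, NDUFB8 (-0.50 ± 0.26) and NDUFA8 (-0.46 ± 0.24) of complex I, and MRPL22 (-0.55 ± 0.25) and MRPL40 (-0.54 ± 0.33) of the large ribosomal subunit. The member that rose was SDHA, the flavoprotein of complex II (0.30 ± 0.17, adjusted p = 0.0409). The most abundant members did not pass the test. ATP5F1E, a subunit of the ATP synthase, had 1789 against 1928, 1847 against 1895, 1642 against 1698 and 1770.1 against 1805 CPM (log2 ratio -0.06 ± 0.04, adjusted p = 0.408), and MRPL41 had a log2 ratio of -0.12 ± 0.02 (adjusted p = 0.176).

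These counts changed with the choice of kept barcodes. In the 53, 66, 63 and 24 barcodes under 2% MT share, mitochondrial ribosome genes took 0.521%, 0.848%, 0.654% and 0.665% of the UMIs, against 0.408%, 0.463%, 0.411% and 0.378% in barcodes of 4% to under 5%. The high-mitochondrial barcodes of 5% to under 6% were at 0.394%, 0.444%, 0.374% and 0.354%. When only barcodes of 3% to under 5% were used as kept barcodes, 7 of 77 respiratory chain genes and 5 of 71 mitochondrial ribosome genes were lower, with medians of -0.07 and -0.09. The counts over all genes were then 1467 higher and 169 lower.

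Other mitochondrial lists showed no common direction. Genes that replicate, transcribe or process mitochondrial DNA had 1 of 13 higher, POLG (0.35 ± 0.22), and 2 lower, SLIRP (-0.43 ± 0.23) and SSBP1 (-0.42 ± 0.29), with a median of 0.09. With kept barcodes of 3% to under 5%, 3 of 11 tested there were higher and 0 lower, at a median of 0.16. Mitochondrial chaperones and proteases had 1 of 14 higher and 0 lower (1 and 1 at an unadjusted p under 0.05), and import and dynamics genes 2 of 27 in each direction. The proteins of the cytosolic ribosome had 2 of 79 lower, RPL5 and RPL3 (both -0.17), with a median of -0.04. With kept barcodes of 3% to under 5%, 20 of the 79 were lower at a median of -0.08.

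The stress lists differed from each other in direction and changed with the choice of kept barcodes. Of 23 tested targets of ATF4 and CHOP, the transcription factors of the integrated stress response that mitochondrial faults are known to engage, 8 fell and 0 rose (14 and 0 at an unadjusted p under 0.05), with medians of -0.04, -0.69, -0.20 and -0.24. DDIT3, which encodes CHOP, had 14.3 against 16.9 CPM, 16.4 against 184, 15.7 against 50.6 and 20.5 against 35.4 (log2 ratio -1.51 ± 1.39, adjusted p = 0.0249). The kept barcodes of shAPC day 3 had the highest level, and the high-mitochondrial barcodes of the 4 libraries were close to each other. There the list took 0.782% of the UMIs of barcodes under 2% MT share, against 0.168% in those of 4% to under 5% and 0.154% in high-mitochondrial barcodes of 5% to under 6%. With kept barcodes of 3% to under 5%, 3 of 22 tested genes fell and 1 rose. With TMM 14 fell and 0 rose, with weighting 5 and 0, after thinning 1 and 2, without shAPC day 3 5 and 2, and without shScr day 7 0 and 0. TRIB3 and ASNS fell by 0.88 and 0.75 on the log2 scale, with SDs of 0.91 and 0.52, and were also highest in the kept barcodes of shAPC day 3.

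Immediate-early genes had 1 of 15 higher and cytosolic heat shock genes 1 of 12 higher, with 0 lower in both (1 and 0 at an unadjusted p under 0.05). With kept barcodes of 3% to under 5%, 3 of 15 and 3 of 12 were higher, with 0 lower in both. NF-kB targets and cytokines had 4 of 15 lower and 0 higher (6 and 0 at an unadjusted p under 0.05), with medians of 0.31, -1.05, -0.25 and -0.20, so that shScr day 3 lay on the other side of 0 from the rest. With kept barcodes of 3% to under 5%, 2 of 14 were higher and 1 lower, after thinning or weighting 0 were called, and without shScr day 3 or shScr day 7 2 and 1 were lower. Targets of p53 had 6 of 20 higher and 1 lower, beside 16.9% and 4.79% of all genes. Their median was 0.14, beside 0.09 for all genes. The counts were 10 and 0 with kept barcodes of 3% to under 5%, 5 and 2 with TMM, 4 and 1 after thinning, 2 and 0 without shScr day 7, and 2 and 1 without shScr day 3, where the median was -0.02. CDKN1A, the inhibitor of cyclin-dependent kinases, had 897 against 538 CPM, 648 against 666, 782 against 558 and 927 against 678 (log2 ratio 0.41 ± 0.32, adjusted p = 0.0284), higher in every library but shAPC day 3. MDM2, RRM2B, ZMAT3 and TNFRSF10B rose by 0.36, 0.44, 0.35 and 0.37 on the log2 scale. GADD45A, a growth arrest gene also induced by other stresses, fell, with log2 ratios of 0.10, -2.66, -0.98 and -0.76 (adjusted p = 0.0475). Apoptosis genes and interferon targets had 0 of 13 and 0 of 18 called by edgeR, with 5 and 4 at an unadjusted p under 0.05. With TMM 2 apoptosis genes and 1 interferon target were lower, and without shAPC day 3 4 interferon targets were higher.

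The remaining lists had few calls or calls in both directions, beside 16.9% of all genes higher and 4.79% lower. Antioxidant genes had 3 of 21 higher and 5 lower: MT2A, a metallothionein and the most abundant of them, fell from 43804 to 35826 CPM, 37372 to 37181, 38989 to 29829 and 33588 to 23602 (log2 ratio -0.30 ± 0.21, adjusted p = 0.0191), and FTL, the ferritin light chain, rose by 0.25 ± 0.24. RNAs retained in the nucleus had 4 of 12 higher and 2 lower. NEAT1, the scaffold of paraspeckles, rose from 3401 to 3662, 3271 to 3976, 2346 to 3125 and 3250.0 to 4461 CPM (log2 ratio 0.31 ± 0.16, adjusted p = 0.0147), while MALAT1, the most abundant of them, had a log2 ratio of -0.10 ± 0.14 (adjusted p = 0.185). Cytoskeleton genes had 4 of 24 lower and 0 higher (7 and 2 at an unadjusted p under 0.05), among them PFN1, encoding profilin (-0.47 ± 0.10). Chaperones of the endoplasmic reticulum had 1 of 19 higher and 0 lower (5 and 3 at an unadjusted p under 0.05). With kept barcodes of 3% to under 5%, 5 of these 19 were higher and 0 lower. With TMM the antioxidant list had 1 higher and 5 lower, the nuclear RNAs 1 and 2, the cytoskeleton list 0 and 6, and the chaperones of the endoplasmic reticulum 1 and 4. After thinning these counts were 2 and 2, 0 and 0, 0 and 2, and 0 and 0. Of 16 targets of Wnt signalling only CCND1, DKK1 and MYC reached the mean for a test, and CCND1, encoding cyclin D1, rose (0.22 ± 0.09, adjusted p = 0.0372) but did not pass with TMM (0.13).

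**Figure D3:**
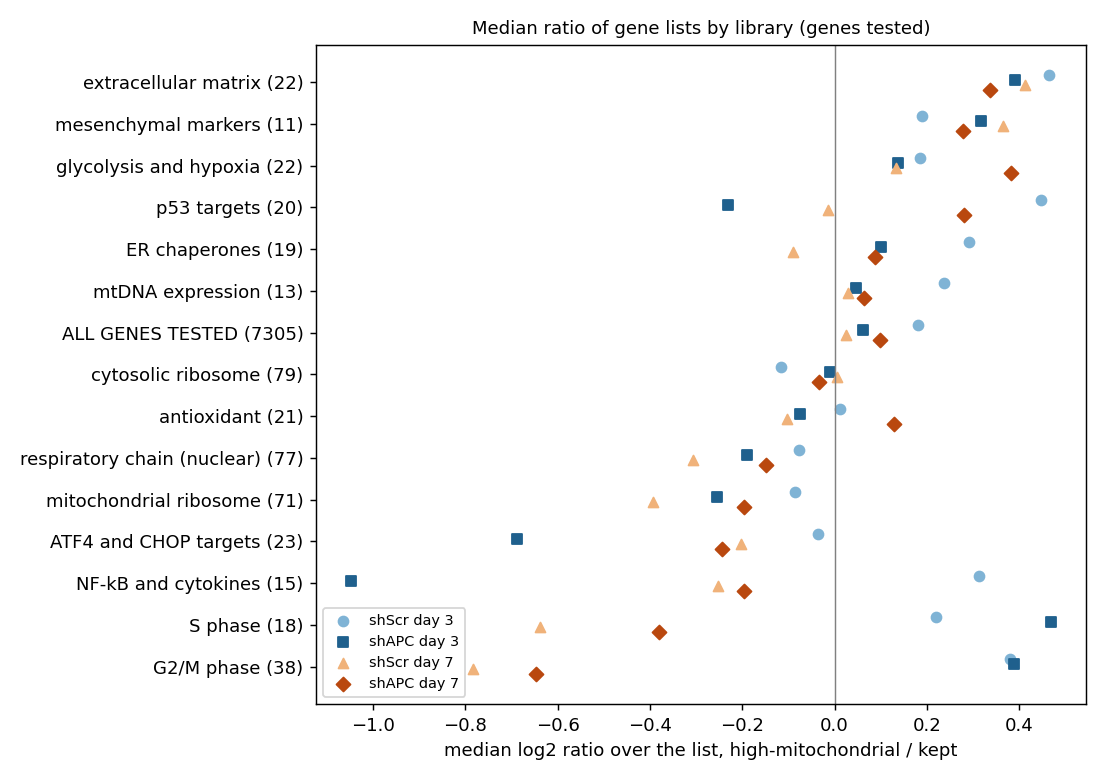
Median log2 ratio of high-mitochondrial to kept barcodes over the tested genes of 14 lists and of all genes (y axis, number of genes in brackets), with 1 point per library. The matrix list lies right of 0 and the mitochondrial ribosome and respiratory chain lists left of 0 in all 4 libraries, while the G2/M and S phase lists lie right of 0 at day 3 and left of 0 at day 7.

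Cell cycle genes reversed between the days. The G2/M list had median log2 ratios of 0.38 and 0.39 at day 3 and -0.78 and -0.65 at day 7, and the S phase list 0.22 and 0.47 at day 3 and -0.64 and -0.38 at day 7. MKI67, the proliferation marker Ki-67, had 38.2 against 24.3 CPM and 53.04 against 32.9 at day 3, and 18.2 against 37.9 and 10.7 against 26.1 at day 7. Its ratio differed by -1.84 on the log2 scale between day 7 and day 3 (edgeR interaction, adjusted p = 0.00314). TOP2A, the topoisomerase of dividing cells, had 196 against 136 and 170.0 against 155 CPM at day 3, and 33.6 against 64.3 and 23.2 against 53.6 at day 7 (interaction -1.40, adjusted p = 0.00562).

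Over all genes, the ratio differed by day for 72 (0.986%), of which 67 (0.917%) were lower at day 7 and 5 (0.0684%) higher, and 615 genes (8.42%) had an unadjusted p under 0.05. Of 38 tested G2/M genes 26 were among the 67, and of 18 tested S phase genes 3. RRM2, PBK and CDC20 had interactions of -1.28, -1.53 and -1.77 (adjusted p = 0.00562 for each). G0S2 went against them, with an interaction of 1.32 (adjusted p = 0.0284), and was lower in high-mitochondrial barcodes by less at day 7 than at day 3. In G1 barcodes alone 0 genes differed by day (edgeR, 100 higher and 144 lower at an unadjusted p under 0.05). G1 was called from the same G2/M and S phase lists, so this setting leaves out the barcodes that express those genes. Only 16 G2/M and 8 S phase genes reached the mean for a test there. The 0 was thus in part set by the choice of barcodes. With kept barcodes of 3% to under 5%, 207 genes differed by day.

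Calls of the G2/M phase, made from the same G2/M and S phase lists, turned in the same way. After thinning to 4000 UMIs, 22.6% of high-mitochondrial barcodes (95% interval 15.1% to 31.8%) against 16.6% of kept barcodes were called G2/M in shScr day 3, and 29.7% (21.6% to 38.8%) against 18.2% in shAPC day 3. At day 7 it was 10.8% (8.15% to 14.0%) against 21.4% in shScr and 5.05% (3.86% to 6.48%) against 13.1% in shAPC. In both day 3 libraries the intervals of the classes overlap, with 14.0% to 19.4% for the kept barcodes of shScr day 3. In shAPC day 3 the overlap was narrow, the kept interval being 15.2% to 21.63% and the high-mitochondrial one starting at 21.61%. Without thinning the G2/M differences were 3.01, 13.6, -11.6 and -8.66 percentage points, against 6.04, 11.4, -10.6 and -8.04 with it. The share called S phase differed by -2.88, 0.27, -1.92 and -2.37 percentage points after thinning to 4000 UMIs. In that setting shScr day 3 lay on the side of the day 7 libraries. Without thinning the S phase differences were 0.51, 1.80, -1.82 and -2.17. Free RNA in the droplets enters such calls, and its part was not tested.

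Between the shRNAs no gene's ratio passed the test (0 of 7305 or 0.0%, edgeR interaction, smallest adjusted p = 0.661), and 137 genes (1.88%) had an unadjusted p under 0.05. With both interactions in 1 fit, 1 gene passed, USP53, whose log2 ratios were 0.36, -0.95, 0.90 and -0.68. USP53 was thus higher in the high-mitochondrial barcodes of both shScr libraries and lower in those of both shAPC libraries.

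The direction of a gene's ratio went with the length of its transcript. The genes called higher had a median transcript length of 4483 nucleotides and those called lower 1140, against 3182 for all genes tested. Of the 603 genes with transcripts under 1000 nucleotides 23.5% were lower and 1.82% higher, and of the 1463 genes with 4000 to 6000 nucleotides 0.684% were lower and 26.5% higher. The median log2 ratio of the shortest class was below 0 in all 4 libraries, at -0.06, -0.17, -0.19 and -0.15. That of the longest class, over 6000 nucleotides, was above 0 in all, at 0.26, 0.15, 0.14 and 0.20. Across 7295 genes the Spearman correlation of length with the mean log2 ratio was 0.48, and 0.34, 0.35, 0.43 and 0.40 in the single libraries. GC content had a correlation of 0.02 with the mean ratio and mean expression one of -0.16. The genes share their libraries, so these correlations are a description. With kept barcodes weighted to the UMI distribution of the high-mitochondrial ones the length correlation was 0.42, and with barcodes thinned to 4000 UMIs 0.34.

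**Figure D4:**
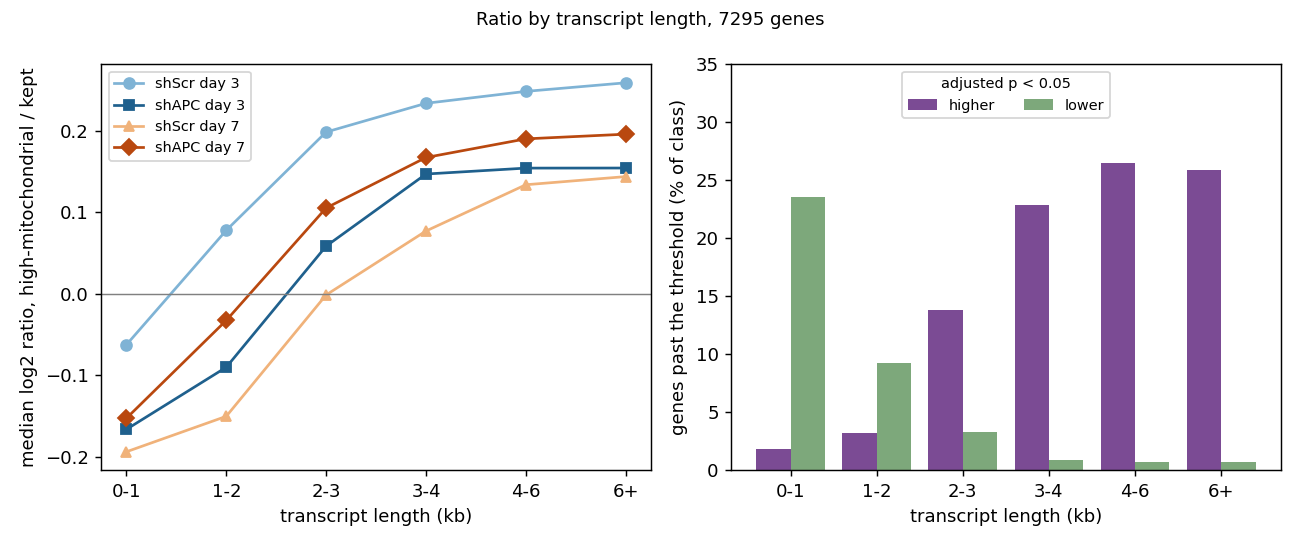
Left, median log2 ratio of high-mitochondrial to kept barcodes (y axis) by class of transcript length in kilobases (x axis), with 1 line per library, and right, percentage of the genes of each class called higher or lower by edgeR (y axis). All 4 lines rise from the shortest class to the longest, and the share called lower falls from 23.5% to 0.669%.

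The gene groups above differ in length too, so they were set beside other genes of the same length. The matrix list had a median length of 5782 nucleotides, and its 10 genes over 6000 nucleotides had a median log2 ratio of 0.37 against 0.19 for the 1336 other genes of that class. The respiratory chain list had a median of 804 nucleotides, and its 44 genes under 1000 nucleotides stood at -0.24 against -0.14 for 559 others. The 24 shortest mitochondrial ribosome genes stood at -0.29 against -0.14 for 579 others. Both lists also lay below the other genes in the other 3 length classes compared. The cytosolic ribosome list lay on either side: its 45 genes under 1000 nucleotides stood at -0.04 against -0.17 for 558 others, its 16 genes of 1000 to 2000 at -0.07 against -0.06 for 1429 others, and its 13 genes of 2000 to 3000 at -0.04 against 0.09 for 1373 others. No test was made of these differences.

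Within the high-mitochondrial range the matrix share of UMIs rose with the MT share in some libraries only. In shScr day 7 it was 1.15%, 1.28% and 1.72% at 5% to under 6%, 6% to under 8% and 8% to under 10%, and 3.35% in the 48 barcodes of 10% or more. In shAPC day 7 the same bands stood at 1.23%, 1.23%, 1.19% and 2.03%, so that no rise was seen from 5% to under 10%. In shScr day 3 the matrix share was 1.25% and 1.84% in the bands of 61 and 37 barcodes, and in shAPC day 3 1.201% and 1.44% in those of 81 and 28. The bands of 8% to under 10% held only 8 and 9 barcodes at day 3. G2/M genes took 0.129%, 0.0849% and 0.0688% of UMIs in the same 3 bands of shScr day 7 and 0.129% at 10% or more. In shAPC day 7 they took 0.0847%, 0.0808% and 0.0809%, and 0.111% at 10% or more. Of these day 7 libraries a fall across the 3 bands from 5% to under 10% was thus seen in shScr only.

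**Figure D5:**
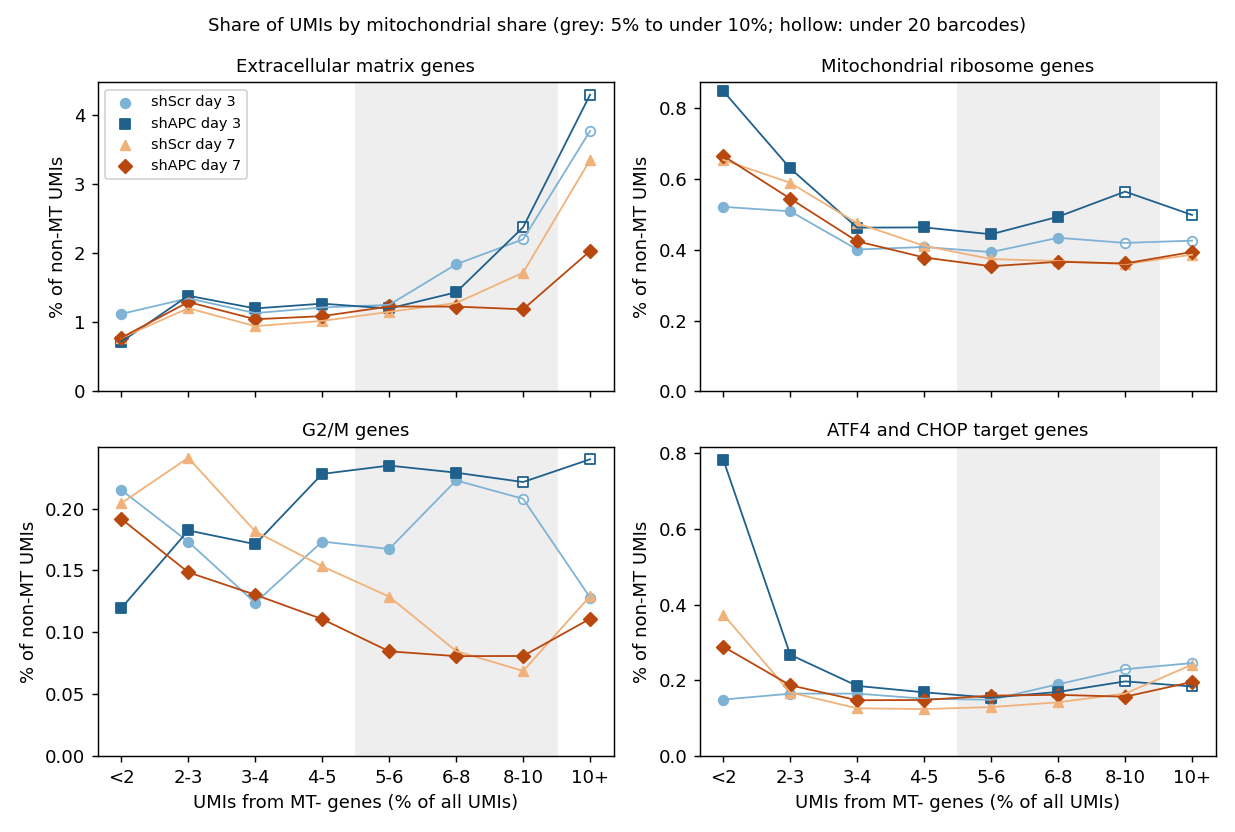
Percentage of the UMIs outside MT- genes (y axis) taken by 4 gene lists, by band of MT share (x axis), with 1 line per library, the high-mitochondrial bands in grey and bands of under 20 barcodes as hollow points. The matrix share is highest in the barcodes of 10% or more in all 4 libraries, the mitochondrial ribosome share is highest under 2%, and the ATF4 and CHOP target share of shAPC day 3 is 0.782% under 2%.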

How the data were processed

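Single-cell 3′ RNA libraries were made on a 10x Chromium instrument from the 4 cultures. The deposited matrices hold counts of UMIs for 33538 genes, which the authors made with Cell Ranger (3.0.2 in the shScr file headers and in the submitters' processing notes, 3.0.0 in the shAPC file headers) and STAR on GRCh38. The kit is version 2 per the labels and per the paper's supplement, while the paper's methods name a later one. No doublet caller was run. In its place the 5% deepest barcodes were left out as an alternative.

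Barcodes were selected on at least 2000 genes and on their share of UMIs from MT- genes. UMIs were summed per library and class, without MT- genes, and tested with the edgeR 4.0.16 quasi-likelihood test in R 4.3.3 (library block plus class, library sizes set to the totals, 3 residual degrees of freedom, a mean of at least 10 CPM over the 8 sums, Benjamini-Hochberg threshold 0.05). All adjusted p-values come from edgeR fits of this kind across all genes tested. Log2 ratios per library used a pseudocount of 1 CPM, which understates the change of low genes, and ± gives their SD over 4 libraries. The test was tried on simulated counts first. Differences of the ratio by day or shRNA were interaction terms added to that fit. They leave fewer residual degrees of freedom, and fewest with both interactions in 1 fit. Phases were scored with scanpy 1.11.5 on thinned counts, with Python 3.11.15, numpy 2.4.6 and scipy 1.17.1. Intervals are exact Clopper-Pearson at 95% and cover counting error only. Transcript lengths and gene positions came from GENCODE 44 (GRCh38). The sequences of the nuclear copies of mitochondrial genes are not reported here.

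Named genes were the 12 highest and 12 lowest called genes of the same sign in all 4 libraries, ranked by the smallest of their 4 absolute log2 ratios and without MT- genes or their nuclear copies, then APC, TERT, CDK4, the 3 most abundant genes of each list and the 5 genes with the lowest adjusted p of each interaction. Other list members were named after their values were seen. The barcode classes and the gene lists were chosen with earlier results of these data known. Alternatives were TMM and DESeq2 1.42.0 size factors, the DESeq2 test, other CPM filters and pseudocounts, thinning to 4000 UMIs, weighting of kept barcodes by UMIs, other limits on genes and MT share, and leaving out each library. Kept barcodes of 3% to under 5%, barcodes not shared between libraries, and, for the interactions, G1 barcodes alone were alternatives added after seeing the data.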

Additional observations from a re-analysis of the deposited data

Results flagged for a closer look

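The contrast of high-mitochondrial to kept barcodes differed between day 7 and day 3 for 72 genes by the edgeR interaction. The difference of the log2 ratio, day 7 minus day 3, was -1.84 for MKI67, -1.77 for CDC20, -1.53 for PBK, -1.40 for TOP2A, -1.28 for RRM2, -1.06 for TYMS, -0.95 for CKS2 and -0.90 for TUBB4B, all genes of dividing cells, and 1.32 for G0S2. In G1 barcodes alone, an alternative added after seeing the data, 0 genes passed. G1 was called from the G2/M and S phase lists themselves, so this 0 was in part set by the choice of barcodes.

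For some summaries both libraries of a day, or of an shRNA, lay on opposite sides of 0 from the other pair. The difference between days was -1.10 for the median of the G2/M list, -0.85 for the S phase list and -0.27 for the cytoskeleton list, all on the log2 scale, and -18.1 percentage points for the share of barcodes called G2/M. The median of the apoptosis list differed by -0.23 between shAPC and shScr. None of these differences of medians or shares was tested.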

How the results depend on the processing

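Against 1231 genes higher and 350 lower, TMM gave 633 and 809, and DESeq2 size factors 622 and 810. A mean of at least 50 CPM gave 387 and 223, and thinning to 4000 UMIs 180 and 56. Thinning removes most UMIs, and of the main calls tested there 1209 of 1218 higher and 344 of 346 lower genes kept their direction. Weighting by UMIs gave 617 higher, no CPM filter 628 lower, kept barcodes of 3% to under 5% 169 lower, and leaving out the 5% deepest barcodes 229 lower. Without the library block edgeR called 0 and 0 (483 and 110 at an unadjusted p under 0.05). Leaving out each library in turn gave 3 to 1100 higher and 0 to 312 lower, with the lowest counts without shAPC day 7.

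Genes of 1 direction in all 4 libraries numbered 3220, and 1009 at 50 CPM, 5323 without the filter and 1920 after thinning. The filters change the number of genes tested. The median Pearson correlation of ratios between libraries was 0.40, and 0.53, 0.22 and 0.12 under the same settings. For the shRNA interaction, with 0 genes, 1 passed when both interactions were in 1 fit. For the day interaction, with 72 genes, 207 passed with kept barcodes of 3% to under 5%. In G1 barcodes, which are chosen by the phase lists themselves, 0 passed. With a minimum of 1000 genes the high-mitochondrial share was 29.3% in shScr day 7 and 50.02% in shAPC day 7. The cause of these changes was not tested.

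Of the 24 genes named for even ratios, thinning left 7 of the 12 higher and 6 of the 12 lower genes called. Without shAPC day 7 none of the 11 higher and 12 lower genes tested was called. The day 3 classes of 106 and 118 barcodes limit the precision of the ratios there. Low genes were not tested.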

Other observations

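Grouping all tested genes by the letters that begin their symbols, a tally made after the values were seen, gave families beyond the lists. Of 118 genes of the SLC family of membrane transporters, 28 were higher in high-mitochondrial barcodes and 2 lower, beside 16.9% and 4.79% of all genes, with a median log2 ratio of 0.20 beside 0.09 for all genes. RAB genes, small GTPases of vesicle traffic, had 9 of 37 higher and 0 lower, with a median of 0.17 beside the same background. Both shares were not far above that of all genes. The 2 families were singled out from those tallied, and SEC genes, with 7 of 21 higher and 1 lower, had a larger share. Neither family was tested, tallied with TMM or set beside other genes of the same length.

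SAA2, which encodes an acute phase protein, was among the 3 genes called without shAPC day 7. Its level was 65.3 CPM in high-mitochondrial against 11.2 in kept barcodes of shScr day 3, 5.73 against 1.20 in shAPC day 3 and 174 against 63.6 in shScr day 7. In shAPC day 7 it was 6.32 against 16.8, the other way round, and with all 4 libraries SAA2 did not pass the test (edgeR adjusted p = 0.151). It was singled out after its values were seen.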
